A study of Mus musculus with 2 samples.

Results

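Classical monocytes were taken here as 88 cells of 3937 kept barcodes from single-cell RNA sequencing of mouse liver. Of these, 62 lay among the 3275 kept control barcodes and 26 among the 662 of the knockout library. Both libraries came from tumour-bearing mice with a floxed glutamine synthetase gene (Glul f/f), collected 7 weeks after virus, and the series title places the tumours in β-catenin-mutant hepatocellular carcinoma. The control mouse had received AAV8-GFP (labelled GFP control) and the other AAV8-Cre (labelled GS-KO (Cre)). AAV8 is a viral vector that mainly reaches hepatocytes, and the promoter that drives Cre is not given in the sources used here. Each group was 1 mouse. Cells were bead-enriched for F4/80, a macrophage surface protein, and then depleted of dead cells, so no share given here is a share of the liver. With 1 mouse a group no test of a group difference was possible. All intervals are 95%, cover counting error only, and compare 2 libraries rather than 2 conditions.

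Classical monocytes are short-lived myeloid cells made in the bone marrow. They carry high surface Ly6C and the chemokine receptor CCR2, which lets them leave the marrow and enter inflamed or tumour-bearing tissue, where they can become macrophages or monocyte-derived dendritic cells. In the blood they also give rise to non-classical monocytes, which patrol vessel walls, depend on the nuclear receptor Nr4a1, and carry little Ly6C. Interferons act on monocytes through surface receptors, and induce antiviral genes, guanylate-binding proteins and the machinery that loads peptides on MHC class I.

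The members were chosen from measured values. A kept barcode had at least 500 UMIs (unique molecular identifiers, each standing for 1 captured RNA molecule) and 200 genes, with at most 20% mitochondrial UMIs. A member had the complement genes C1qa, C1qb and C1qc below 1% of UMIs, the neutrophil genes S100a8 and S100a9 below 2%, at least 3 UMIs of Lyz2 plus Csf1r, and at most 1 lymphocyte-marker UMI. It had at least 3 UMIs of Ly6c2, Ccr2, F13a1, Chil3 and Vcan together, and more of these than of the non-classical markers Ace, Treml4, Cd300e and Spn. The last condition removed 15 control and 9 GS-KO cells. At the edge, 1 member of each library had exactly 3 marker UMIs, and 3 cells of each library stayed outside with 2. With C1q genes between 0.5% and 1% there were 2 control members and 1 GS-KO member, against 6 and 2 cells left outside between 1% and 2%.

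Control members had a median of 8545 UMIs per cell, from 4250 to 81490, and GS-KO members one of 7498.5, from 2529 to 14852. Their summed totals were 661078 and 216421 UMIs. Levels are given as CPM, a gene's UMIs scaled to a total of 1000000 per library, summed over the members. Glul was at 3080 CPM in control and 135 CPM in GS-KO hepatocyte barcodes, and at 99.8 and 69.3 CPM in the members. The libraries shared 1 barcode, which was not a member, and a doublet caller marked 0 members. Members were 1.89% of control barcodes (interval 1.45 to 2.42%) and 3.93% of GS-KO barcodes (2.58 to 5.70%). These shares move with how many cells of other kinds passed the enrichment. C1q macrophages were 39.8% of kept control barcodes and 13.3% of kept GS-KO barcodes.

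The members were not all of 1 kind. In 71 of the 88 cells, 48 control and 23 GS-KO, the genes that stood out against the other members included Chil3, Vcan, Ly6c2, Nr4a1 and Ear2. The first 3 chose the cells, so they describe the label and do not test it. Nr4a1 and Ear2 are non-classical monocyte genes. At least 3 non-classical marker UMIs were present in 16 of the 48 and 11 of the 23 cells. The other 17 cells met the same rule but carried a second programme at 1% of UMIs or more, a limit set after the data were seen. MHC class II genes (H2-Aa, H2-Ab1, H2-Eb1 and Cd74) passed that limit in 10 control and 2 GS-KO cells. Retnla, an alternative-activation gene of macrophages, passed it in 2 control cells and 1 GS-KO cell. Hepatocyte genes passed it in 2 control cells and 0 of 26 GS-KO cells. A count of 0 allows a share of up to 13.2% by the exact interval, or 11.5% taken as 3 counts of the 26.

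The MHC class II-rich cells were led by H2-Ab1, H2-Aa, Cd74, Ccl5 and Cd209a, the last a lectin of monocyte-derived dendritic cells. Their class II genes made up 1.36 to 6.95% of UMIs in the control cells and 6.32 to 9.09% in the GS-KO cells. The highest of the other members stood at 0.627%, below a gap in which the limit lies. Of the 10 control cells 5 had no Ly6c2 UMI, but all 12 had Ccr2. Cd209a was found in 2 of the 10 and 1 of the 2, with up to 12 and 17 UMIs in a cell. Over all 88 members the 7 conventional dendritic cell markers summed to 60.5 CPM in control and 139 CPM in GS-KO, with at least 3 UMIs in 4 and 2 cells. Of the 7, Clec9a and Ccr7 were at 0 in both libraries, Xcr1 in the control library and Zbtb46 in the GS-KO library.

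The 2 Retnla-rich control cells held 228 and 315 Retnla UMIs, and the GS-KO cell held 274. All 3 had no Ly6c2, Ccr2 or Chil3 UMI and entered through F13a1, which encodes the clotting factor XIII A chain. Fibronectin (Fn1) stood at 85 and 139 UMIs in the control cells and at 124 in the GS-KO cell. Their C1q share of 0.588 to 0.996% lay just under the rule's limit. Both hepatocyte-RNA cells were control cells, with hepatocyte genes at 3.96% and 5.14% of UMIs. The second of these was the deepest member, with 12.3% of all control member UMIs. Because such cells decide several values, results are given for the 71 other members, with the 88 beside them where they differ.

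**Figure D1:**
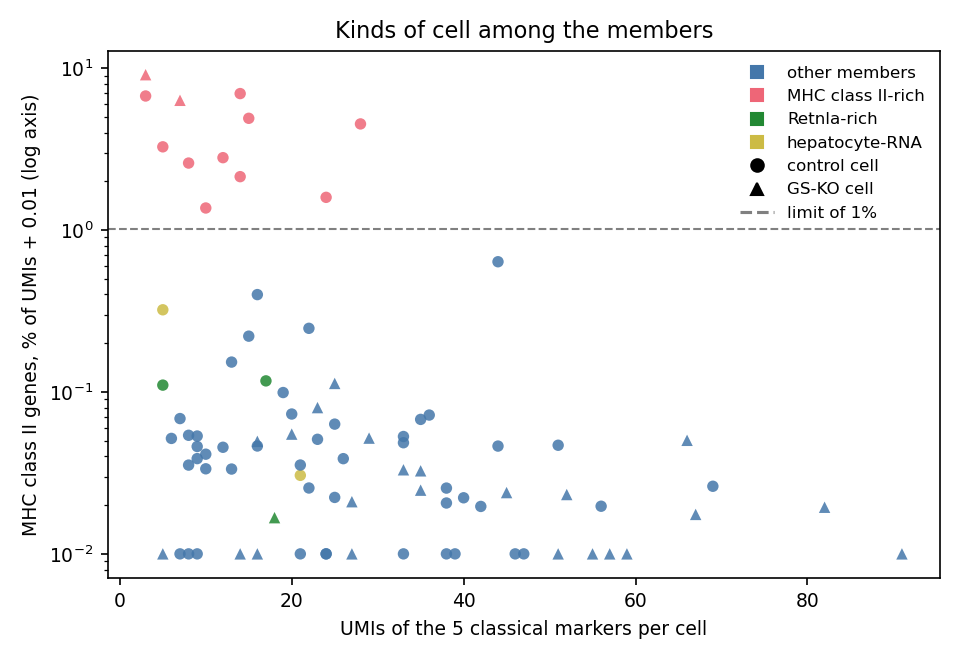
Each point is 1 member cell, with UMIs of the 5 classical markers on the horizontal axis and the MHC class II share of its UMIs (plus 0.01, log axis) on the vertical axis. Circles are control and triangles GS-KO cells, and the 12 MHC class II-rich cells lie above the dashed limit of 1%, apart from the highest other member at 0.627%.

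Markers of other cell types varied in the 71 members. The 6 non-classical monocyte markers, some of them counted by the rule, summed to 567 CPM in control and 1225 CPM in GS-KO members. In non-classical monocytes of both libraries pooled they summed to 870 CPM, but the libraries differed there, with Ace at 146 CPM in control and 709 CPM in GS-KO. The 5 classical markers, which chose the cells, summed to 2954 and 5108 CPM in the members, against 123 CPM in non-classical monocytes. The T cell, basophil, mast cell, red cell and stellate cell lists summed to 0 to 2.42 CPM. The macrophage list (C1q genes, Apoe, Mrc1 and Adgre1) summed to 2353 CPM in control and 2790 CPM in GS-KO members, against 56524 CPM in C1q macrophages. Plasmacytoid dendritic cell markers summed to 315 and 225 CPM, with the defining gene Siglech at 0 in both libraries. Neutrophil markers summed to 170 and 214 CPM, with Retnlg and Ly6g at 0 in both. Kupffer cell markers summed to 50.9 CPM in control and 16.5 CPM in GS-KO members, against 9906 CPM in C1q macrophages. Hepatocyte markers differed more, at 489 and 43.9 CPM. The same 5 hepatocyte genes stood at 849 CPM in control and 65.8 CPM in GS-KO B cells, so these genes were also higher in the B cells of the control library. In non-classical monocytes they stood at 14936 CPM in control and 17.7 CPM in GS-KO. Their part in other differences was not tested.

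The 5 genes of the cell rule did not share 1 direction between the libraries. These values chose the cells and are given as a description. Ccr2, the receptor that carries monocytes out of the marrow, stood at 712 CPM in control and 670 CPM in GS-KO members. F13a1 was at 613 and 588 CPM. Neither pair of values was apart by more than its counting error.

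Chil3 (chr3:106147554-106167564, minus strand, GENCODE M21 on GRCm38) encodes the chitinase-like protein Ym1, made by marrow-derived monocytes and neutrophils. It was at 383 CPM in control members (interval 325 to 447) and 2905 CPM in GS-KO members (2663 to 3164), a ratio of 7.59 (6.34 to 9.12). All 23 GS-KO cells had a Chil3 UMI, against 32 of 48 control cells. Leaving out any 1 cell kept the ratio between 6.95 and 8.64. After thinning each of the 88 members to 1000 UMIs, 65.4% of GS-KO and 24.2% of control members still had a Chil3 UMI (88.5% and 58.1% unthinned). Other cells of the GS-KO library also carried more of it. Chil3 stood at 20.7 CPM in GS-KO and 0.525 CPM in control B cells, and at 313 and 19.9 CPM in non-classical monocytes. In neutrophils it stood at 1994 CPM in GS-KO and at 0 in control, a GS-KO level near that of the members.

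Vcan (chr13:89655312-89742509, minus strand) encodes versican, a matrix proteoglycan of newly arrived monocytes. It was at 72.7 CPM in control and 423 CPM in GS-KO members, a ratio of 5.82 (3.77 to 9.19). A minority of cells carried the difference. Any Vcan was found in 19 of 48 control and 11 of 23 GS-KO cells. In the GS-KO library 6 cells with at least 5 UMIs held 71 of the 77 Vcan UMIs, and the highest single cell held 28.6%. Leaving out that cell or any other kept the ratio between 4.48 and 6.58.

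Ly6c2 (chr15:75108158-75111970, minus strand) encodes the Ly6C surface antigen and went the other way. It stood at 1173 CPM in control members (1071 to 1282) and 522 CPM in GS-KO members (422 to 638), a ratio of 0.445 (0.353 to 0.555). Ly6c2 was missing in 2 of 48 control cells and 6 of 23 GS-KO cells. None of these cells would meet the rule without its Chil3 UMIs, and Chil3 was higher in GS-KO. After thinning all 88 members to 1000 UMIs the log2 ratio moved from -0.84 to -0.13, and 51.6% of control (38.6 to 64.5%) and 42.3% of GS-KO members (23.4 to 63.1%) had a Ly6c2 UMI. Among members with fewer than 3 non-classical UMIs the log2 ratio was -0.36. The size of the Ly6c2 difference thus moved with thinning, which is a random draw of UMIs, and with which cells were counted. Over 16 other settings the Ly6c2 log2 ratio ran from -1.17 to -0.13, and it was counted as moved in 2 of them. Reads from its close copy Ly6c1 may not be fully told apart from it. Over all 88 members Ly6c2 was at 787 and 439 CPM, Chil3 at 251 and 2444 CPM, and Vcan at 45.4 and 356 CPM.

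**Figure D2:**
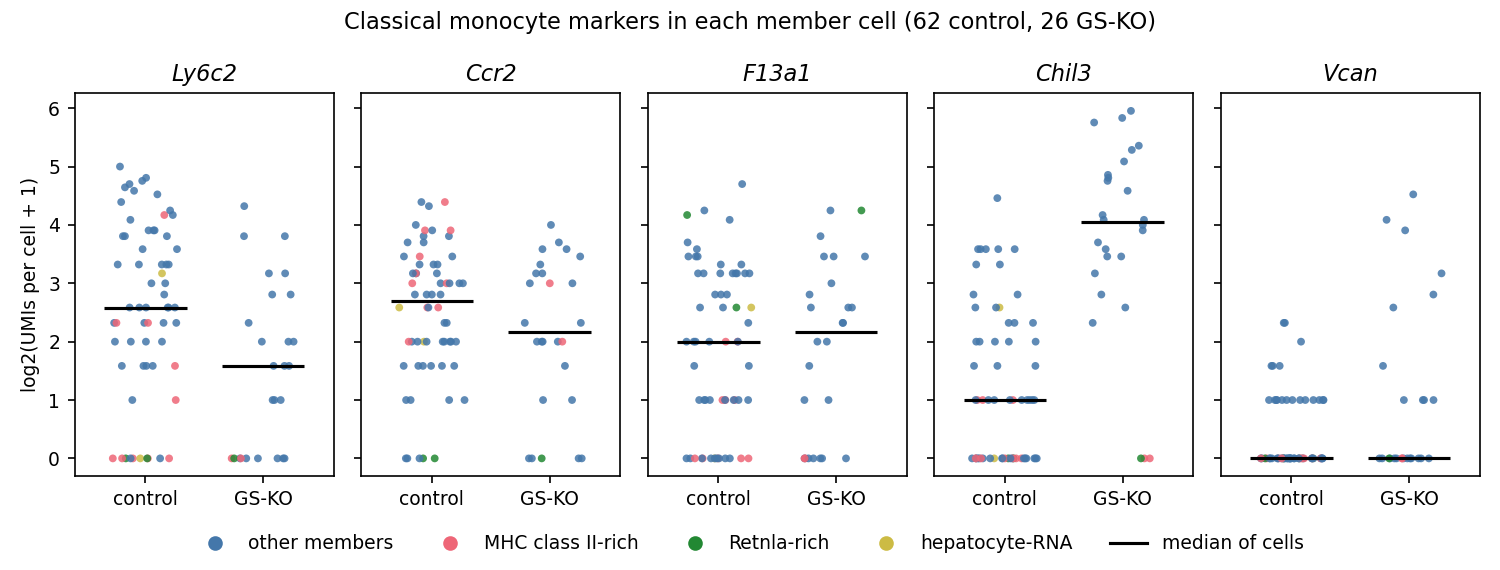
UMIs per cell, as log2(UMIs + 1), of the 5 classical markers in each of the 62 control and 26 GS-KO members, with the median of cells as a bar and colours for the kinds of member. Chil3 is present in every one of the 23 GS-KO cells drawn as other members, while Vcan is high in few cells and Ly6c2 reaches lower in GS-KO.

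The classical list as a whole, with the genes of the rule in it, also held genes of both directions. Over the 71 members 20 of its 27 genes were measured with at least 20 UMIs, the 5 of the rule included. Of the 20, 5 were 1.5-fold higher in GS-KO, 5 lower, and the median log2 ratio was -0.10. Chil3 and Vcan are among the 5 higher and Ly6c2 among the 5 lower, and no count was made without the rule's genes. Over all 3982 genes compared, 13% were 1.5-fold higher, 16.6% lower, and the median was -0.03. These shares stand beside each count over the 71 members given below. Lyz2, the lysozyme of myeloid cells, was at 23905 CPM in control and 13709 CPM in GS-KO members, a ratio of 0.573 (0.549 to 0.599). Plac8, abundant in Ly6C-high monocytes, was at 4667 and 2691 CPM. Fn1 was level at 1648 and 1708 CPM. S100a10, an annexin partner, was at 1057 and 560 CPM.

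Non-classical genes were higher in the GS-KO members. The rule capped some of them, but it also counted Chil3, which was higher in that library. Of 15 measured non-classical genes 10 were 1.5-fold higher and 0 lower, and their log2 ratios had a median of 1.00. Under other settings the list's median ran from 0.40 to 1.04. In non-classical monocytes 14 of 20 list genes were higher and 2 lower, with a median of 1.46. Of all 6959 genes compared there, 1831 were higher and 2438 lower. Ribosomal protein genes were also higher there, 32 of 34, with a median of 1.02. Hepatocyte genes were far higher in the control non-classical cells, as given above. How far this moved the value of 1.46 was not tested. In C1q macrophages the list's median was -0.16. Nr4a1, the nuclear receptor of non-classical monocytes and also an early response gene, was at 271 CPM in control and 593 CPM in GS-KO members, a ratio of 2.19 (1.66 to 2.87). Ear2, a ribonuclease, was at 351 and 703 CPM, and Pglyrp1, a peptidoglycan receptor, at 284 and 632 CPM. For Pglyrp1, 1 cell held 42.6% of the GS-KO UMIs. Ace, the angiotensin-converting enzyme that the rule counts, was at 111 and 297 CPM. Itgal, an integrin chain of patrolling cells, was at 247 and 412 CPM. Cx3cr1, the fractalkine receptor, did not differ beyond counting error at 230 and 269 CPM. Over the 88 members 14 of 19 were higher, 1 lower, and the median was 0.94, beside 16.2% of 5157 genes higher, 21.7% lower and a median of -0.03. At least 3 non-classical marker UMIs were present in 21 control members (33.9%) and 11 GS-KO members (42.3%). A GS-KO member with 22 such UMIs entered through 27 Chil3 UMIs and had no F13a1, Ccr2, Ly6c2 or Vcan UMI. It held 35 of the 128 Ear2 UMIs of the GS-KO members. GS-KO members with 5 and 9 such UMIs likewise entered through 14 and 33 Chil3 UMIs alone. A control member with 5 such UMIs did so through 6. In the order given, the GS-KO cells held 9, 5 and 6 of the 54 Ace UMIs of the GS-KO members. They are among the 6 GS-KO cells without Ly6c2, none of which would meet the rule without Chil3. How much of the list's difference rests on such cells was not tested.

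Interferon-induced genes stood lower in the GS-KO members, among them the interferon-inducible GTPases, with 7 of 7 measured 1.5-fold lower and a median log2 ratio of -3.00. These proteins (guanylate-binding proteins and immunity-related GTPases) assemble on membranes around intracellular pathogens. They are induced by interferon gamma and by type I interferons through elements close to the start of their genes. The stretch just before the start is therefore shown for 4 of them, 130 bases ending at the annotated start, from the RefSeq promoter table of GRCm38.p6. Capitals mark GAAANNGAAA or its complement TTTCNNTTTC, letters of the interferon-stimulated response element. They are printed along the gene's own strand, Gbp2 from chr3:142620533-142620662 (plus), Gbp7 from chr3:142530206-142530335 (plus), Igtp from chr11:58199426-58199555 (plus) and Irgm1 from chr11:48871421-48871550 (minus).
Gbp2: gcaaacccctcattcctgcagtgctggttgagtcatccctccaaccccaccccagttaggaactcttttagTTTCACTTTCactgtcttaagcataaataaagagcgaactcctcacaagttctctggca
Gbp7: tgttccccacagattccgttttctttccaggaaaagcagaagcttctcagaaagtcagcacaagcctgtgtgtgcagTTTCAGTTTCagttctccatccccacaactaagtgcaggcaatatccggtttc
Igtp: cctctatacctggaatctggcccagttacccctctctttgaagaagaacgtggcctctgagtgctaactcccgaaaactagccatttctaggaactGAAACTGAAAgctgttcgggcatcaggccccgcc
Irgm1: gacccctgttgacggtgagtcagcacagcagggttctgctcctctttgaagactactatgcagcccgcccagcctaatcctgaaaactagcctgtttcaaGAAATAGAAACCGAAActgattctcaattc

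The match begins 59 bases before the start in Gbp2, 53 in Gbp7, 34 in Igtp and 30 in Irgm1, where 2 matches overlap. Within 250 bases before any listed start, 6 of the 7 measured GTPase genes in the table held the letters, Ifi47 being the exception. The same was true of 3.46% of all 27025 genes in the table. Of the measured interferon response genes 22 of 41 in the table held them, and of the early response genes 0 of 19. The letters TTCNNNGAA, those of the gamma-activated site, read the same on both strands and stood before 3 of the 7 GTPase genes and 8.13% of all genes. A match is a description of the letters and not a site shown to be used.

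Summed over 8 GTPase genes, the control members stood at 722 CPM (642 to 809) and the GS-KO members at 76.9 CPM (42.0 to 129), 9.39-fold lower (5.51 to 17.4). At least 1 GTPase UMI was found in 43 of 48 control cells (89.6%, interval 77.3 to 96.5%) and in 8 of 23 GS-KO cells (34.8%, 16.4 to 57.3%). In B cells of these libraries the shares were 33.3% and 29.8%, at lower median depths of 3679 and 3883 UMIs. The control members thus stood above the B cells of their library. The GS-KO share lay within the B cell interval of its own library (21.8 to 38.7%), and whether UMIs at that level are free RNA or expression was not tested. A single control cell held 32.9% of the control GTPase UMIs, and without it the GS-KO value was 6.43-fold lower (3.74 to 12).

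Each GTPase gene showed the same direction. Gbp2 was found in 16 of 48 control and 2 of 23 GS-KO cells, at 189 and 11 CPM, of which 1 control cell held 38.5%. Gbp3 was the most widespread, with UMIs in 25 control cells and 1 GS-KO cell, at 116 and 5.49 CPM. Irgm1, which controls autophagy and the other family members, was in 20 and 4 cells at 99.4 and 22 CPM. Ifi47 was in 22 and 3 cells at 104 and 22 CPM. Gbp7 was at 82.4 CPM in control members, and Gbp5 and Igtp both at 55.7 CPM, each with 1 UMI in the GS-KO members. The ratio for such a gene rests on that single molecule, 0.0667 with an interval of 0.00164 to 0.397 for Gbp7. Gbp5 came mostly from 1 control cell, with 60.9% of its UMIs. Iigp1 was found in 1 control cell of the 48 alone.

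**Figure D3:**
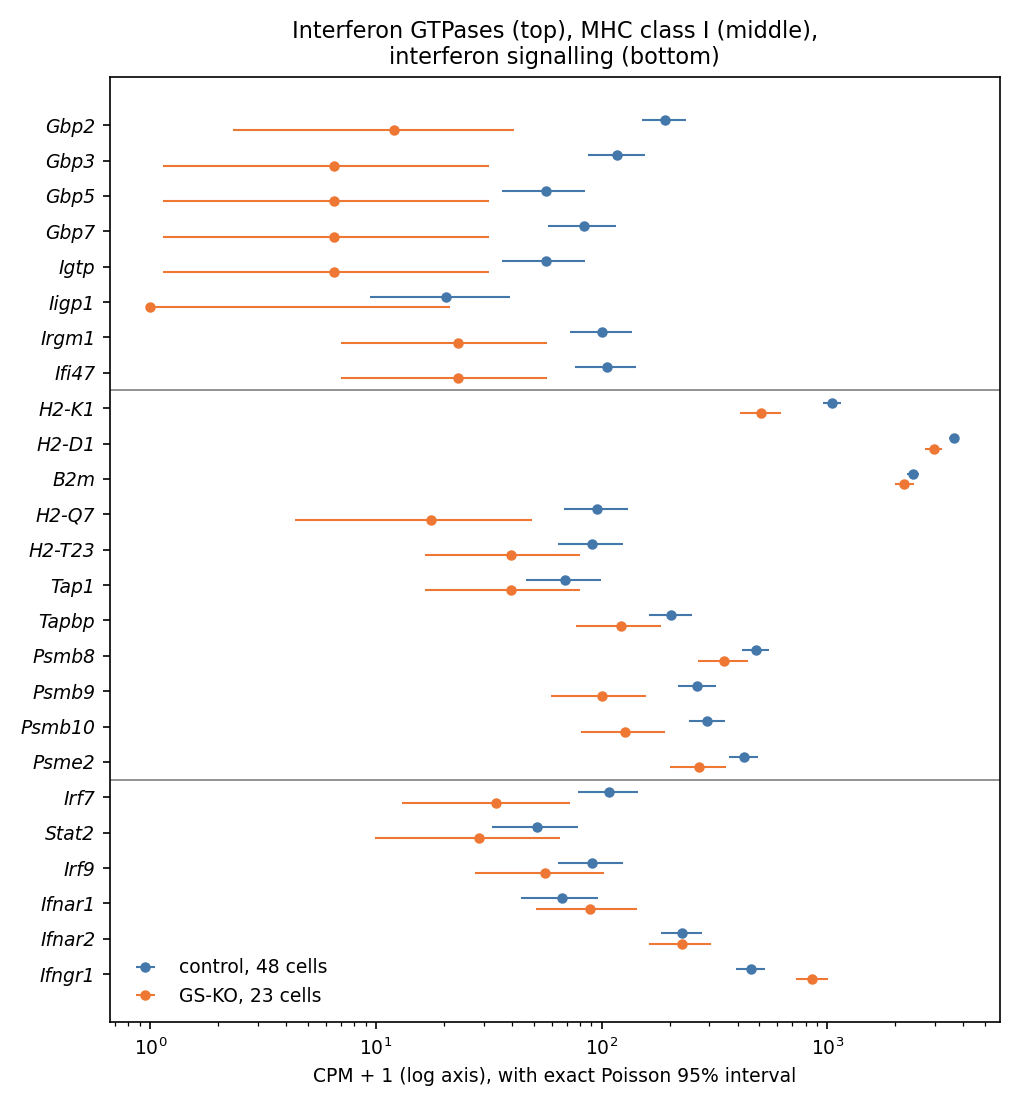
CPM + 1 (log axis) with exact Poisson 95% intervals in the 48 control and 23 GS-KO members, for the GTPases, for MHC class I genes and for interferon signalling genes. All 8 GTPases lie to the left in GS-KO (for Iigp1 the intervals overlap), H2-K1 and Psmb9 are separated, B2m and Ifnar2 overlap, and Ifngr1 lies to the right.

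Of 47 interferon response genes measured in the 71 members, 33 were 1.5-fold lower and 0 higher, and the median of the log2 ratios was -0.94. This list holds 7 of the GTPases. Without them 26 of 40 were lower and 0 higher, and the median was -0.84. Irf7, which amplifies the type I response, was at 107 CPM in control members (77.5 to 143) and 33.0 CPM in GS-KO members (12.1 to 71.7), a ratio of 0.309 (0.108 to 0.728). Bst2 (tetherin, which holds budding viruses) was at 242 and 121 CPM, and Slfn1 at 196 and 87.9 CPM. Ifitm3, an endosomal restriction factor, was at 5571 and 4520 CPM and Ifi27l2a at 3787 and 2982 CPM, so these abundant genes were not past 1.5-fold. The chemokines Cxcl9 and Cxcl10, which attract T cells, had 0 UMIs in GS-KO members, but 1 control cell held 92.1% of the Cxcl9 and all of the Cxcl10 UMIs.

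The difference was spread over cells. Summed over the list, the control cells ran from 8746 to 50921 CPM with a median of 19223, and the GS-KO cells from 7508 to 19871 CPM with a median of 12492. The highest GS-KO cell thus lay near the control median, while the low ends overlapped. Leaving out any 1 of the 88 cells kept the list's median log2 ratio between -1.05 and -0.84. After thinning to 1000 UMIs per cell only 10 list genes were still measured, those of the highest levels, and their median was -0.19.

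Of 22 measured genes of interferon sensing and signalling, 2 were higher and 9 lower, with a median of -0.14, and Irf7 is on this list too. The receptor chains were not among the lower genes. Ifnar2, a chain of the type I receptor, was at 225 CPM in both libraries, and Ifnar1 was at 65.4 and 87.9 CPM with overlapping intervals. Ifngr1, the ligand-binding chain of the interferon gamma receptor, was higher in the GS-KO members, at 456 and 857 CPM, a ratio of 1.88 (1.51 to 2.34).

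The same lists gave other values in neighbouring cells. In non-classical monocytes, 66 control and 20 GS-KO cells, the interferon list had a median log2 ratio of -0.25 and the GTPases one of -0.01. There 62 of 66 control cells and 7 of 20 GS-KO cells had a GTPase UMI, and 1 GS-KO cell held 43.6% of that library's UMIs. The 2 pools of non-classical cells also differed in other RNA. Hepatocyte genes stood at 14936 CPM in control and 17.7 CPM in GS-KO, and C1q genes at 3692 and 390 CPM. Ribosomal protein genes had a median of 1.02 there, with 32 of 34 higher. How far this moved the medians of -0.25 and -0.01 was not tested. In C1q macrophages the medians were -0.45 and -0.47. Whether the monocytes differ from these cells in this respect was not tested, since each library is 1 mouse.

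MHC class I genes, which present peptides to CD8 T cells, were also lower. Of 17 measured, 11 were 1.5-fold lower and 0 higher, and the median was -0.79. The classical heavy chain H2-K1 was at 1049 CPM in control and 505 CPM in GS-KO members, a ratio of 0.482 (0.380 to 0.604). Psmb9 and Psmb10, subunits of the immunoproteasome that cuts peptides, were at 264 and 98.9 CPM and at 293 and 126 CPM. Over the 88 members the ratio of Psmb9 was 0.496, and after thinning its log2 ratio was -0.40. H2-D1 differed less, at 3649 and 2955 CPM, and the light chain B2m stood at 2401 and 2191 CPM with a ratio interval of 0.810 to 1.03. Reads of the H2 genes can be shared among close copies. Thinned to 1000 UMIs, the 10 class I genes still measured in the 88 members had a median of -0.40. In C1q macrophages 12 of 24 class I genes were lower and 0 higher (median -0.58), beside 2502 of 11811 genes lower and 1133 higher. The median in non-classical monocytes was -0.08, with the limit given above for those cells. H2-K1 was also lower in other GS-KO cells, at 2093 and 1202 CPM in C1q macrophages and at 1447 and 1106 CPM in B cells.

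MHC class II values depended on which members were counted. In the 71 members 5 of 9 measured genes were lower and 0 higher, with a median of -0.59 and Cd74, the invariant chain, at 441 and 181 CPM. Over the 88 members Cd74 stood at 3909 and 4339 CPM and the list's median was -0.34. Cd74 UMIs numbered 2223 in the 10 class II-rich control cells and 905 in the 2 such GS-KO cells, against 182 and 33 in the 71 members. The 71 were themselves chosen on class II share. Among them the highest control cells stood at 0.627% and 0.389%, against a control median of 0.0287% and a GS-KO maximum of 0.103%. The list's median was 0.22 among members with fewer than 3 non-classical UMIs, -1.30 without cells with dendritic marker UMIs and -0.76 with at least 5 classical marker UMIs.

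Early response genes, transcription factors and phosphatases that switch on within minutes of a stimulus, stood higher in the GS-KO members. Of 20 measured, 9 were 1.5-fold higher and 0 lower, and the log2 ratios had a median of 0.54. Fos was at 1098 CPM in control and 2461 CPM in GS-KO members, a ratio of 2.24 (1.96 to 2.56). Dusp1, a phosphatase that ends MAP kinase signals, was at 489 and 1098 CPM. Its log2 ratio over the 88 members, 1.18, was 0.37 after thinning. Atf3, a stress transcription factor, was at 155 and 478 CPM. Such genes also respond to tissue digestion, and handling and condition cannot be told apart with 1 preparation of each. The list's median was 1.37 in non-classical monocytes and 0.96 in C1q macrophages. The limit given above for non-classical monocytes holds for the first of these values too.

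Single cells of the GS-KO library lay wide apart in these genes. Summed over the list they ran from 2064 to 27697 CPM with a median of 12980, and the middle of the distribution reached from 3784 to 20692 CPM. Control cells ran from 1858 to 18572 CPM with a median of 7792. Of the 6 GS-KO cells with at least 5 Vcan UMIs, 5 had at most 1 Fos UMI, and the median of their early response sum was 3306 CPM. The 12 GS-KO cells with no Vcan had a median of 15469 CPM. The Vcan-rich cells held a median of 25 Fn1 and 8 Ly6c2 UMIs, against 4 and 0.5 in the cells with no Vcan. All control cells had fewer than 5 Vcan UMIs. These groups of GS-KO cells were formed after their values were seen and come from 1 mouse.

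**Figure D4:**
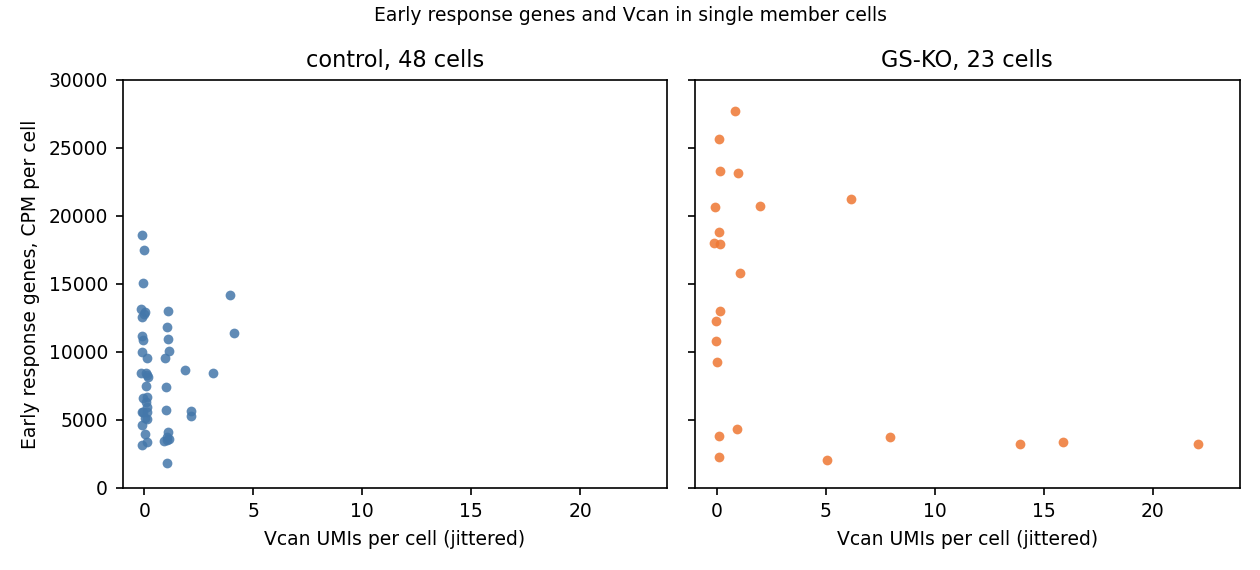
Early response genes summed per cell (CPM, vertical) against Vcan UMIs (horizontal, jittered) in the 48 control and 23 GS-KO members. In the GS-KO library the 4 cells at the far right lie low, and cells reach 27697 CPM only where Vcan is low or absent.

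Heat shock genes as a list were level, with 3 of 12 higher, 0 lower and a median of 0.15. The 3 included the inducible chaperones Hspa1a, at 189 and 494 CPM, and Hspa1b, at 128 and 445 CPM, close copies whose reads may be shared. Hspa1a was also higher in other GS-KO cells, at 62.5 CPM in control and 530 CPM in GS-KO B cells and at 98.1 and 432 CPM in C1q macrophages. Of 10 glucocorticoid-induced genes measured 6 were higher and 0 lower, with a median of 0.65. Fkbp5, a chaperone induced by the glucocorticoid receptor, was found in 3 control and 8 GS-KO cells, at 7.27 and 60.4 CPM.

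Among chemokines and cytokines, some differences rested on few cells. Ccl3, a chemokine that attracts myeloid cells, was at 50.9 and 253 CPM and was found in 10 of 48 control and 10 of 23 GS-KO cells. Leaving out any 1 cell kept its ratio between 3.54 and 7.80. Ccl4, a related chemokine, was at 43.6 and 269 CPM, but 1 GS-KO cell held 69.4% of its UMIs and without it the ratio fell from 6.17 to 2.00. For Cxcl2, which attracts neutrophils, 1 GS-KO cell held 87.9% of the UMIs, and for Il1b 85.7%. The levels of the last 3 genes thus rest on a single cell.

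By the fixed naming rule, applied again to the 71 members, the other higher genes were Pla2g7, Rbm3 and Gda. Pla2g7, which breaks down platelet-activating factor, was at 177 and 538 CPM. Rbm3, an RNA-binding protein induced by cold, was at 330 and 840 CPM. Rbm3 was higher in the GS-KO library in other cells too, at 216 and 547 CPM in B cells and at 146 and 349 CPM in C1q macrophages. The other lower genes were Ehbp1l1, Tppp3, Ifi202b, Ms4a6b and Manf. Ifi202b, an interferon-inducible DNA-binding protein, was at 492 and 209 CPM, and Ms4a6b, a membrane protein of the Ms4a family, at 453 and 209 CPM. Over the 88 members both moved further after thinning, Ifi202b from -1.05 to -1.71 and Ms4a6b from -1.03 to -1.76 on the log2 scale. Applied to all 88 members the rule had also named Lyz1 and Prg4 as higher, and Hamp, Orm1 and Afp, liver secretory genes, as lower. Prg4 had 116 UMIs in the GS-KO library, all in 1 Retnla-rich cell, and 127 in 3 control cells, and 1 control hepatocyte-RNA cell held 90.6% of the control Hamp UMIs.

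Genes of glutamine handling, the pathway altered in the mouse, had a median log2 ratio of -0.33, with 2 of 13 measured higher and 3 lower. These counts lie near the shares of all genes, 13% higher and 16.6% lower. Glul itself, glutamine synthetase, was at 89.7 CPM in control and 82.4 CPM in GS-KO members, a ratio of 0.919 (0.469 to 1.72). The transporter Slc38a2 was at 116 and 214 CPM, and Glud1, glutamate dehydrogenase, at 400 and 555 CPM. Gclm, the modifier subunit for glutathione synthesis, had 20 UMIs in 14 control cells and 0 in GS-KO members, at least 2.94-fold lower against a floor of 3 counts over the library. Oat, ornithine aminotransferase, was at 67.8 and 16.5 CPM.

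Nuclear respiratory chain genes were level, with 1 of 29 higher, 2 lower and a median of 0.06. Over the 88 members 1 was higher and 10 lower, with a median of -0.38, which was -0.02 without the deepest control cell. Of 12 mitochondrially encoded genes 6 were higher and 0 lower, with a median of 0.38. mt-Nd5, a complex I subunit, was at 308 and 1044 CPM, but 1 GS-KO cell held 43.7% of those UMIs. Adhesion and migration genes had a median of 0.30, with 5 of 17 higher and 3 lower, beside 13% and 16.6% of all genes.

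**Figure D5:**
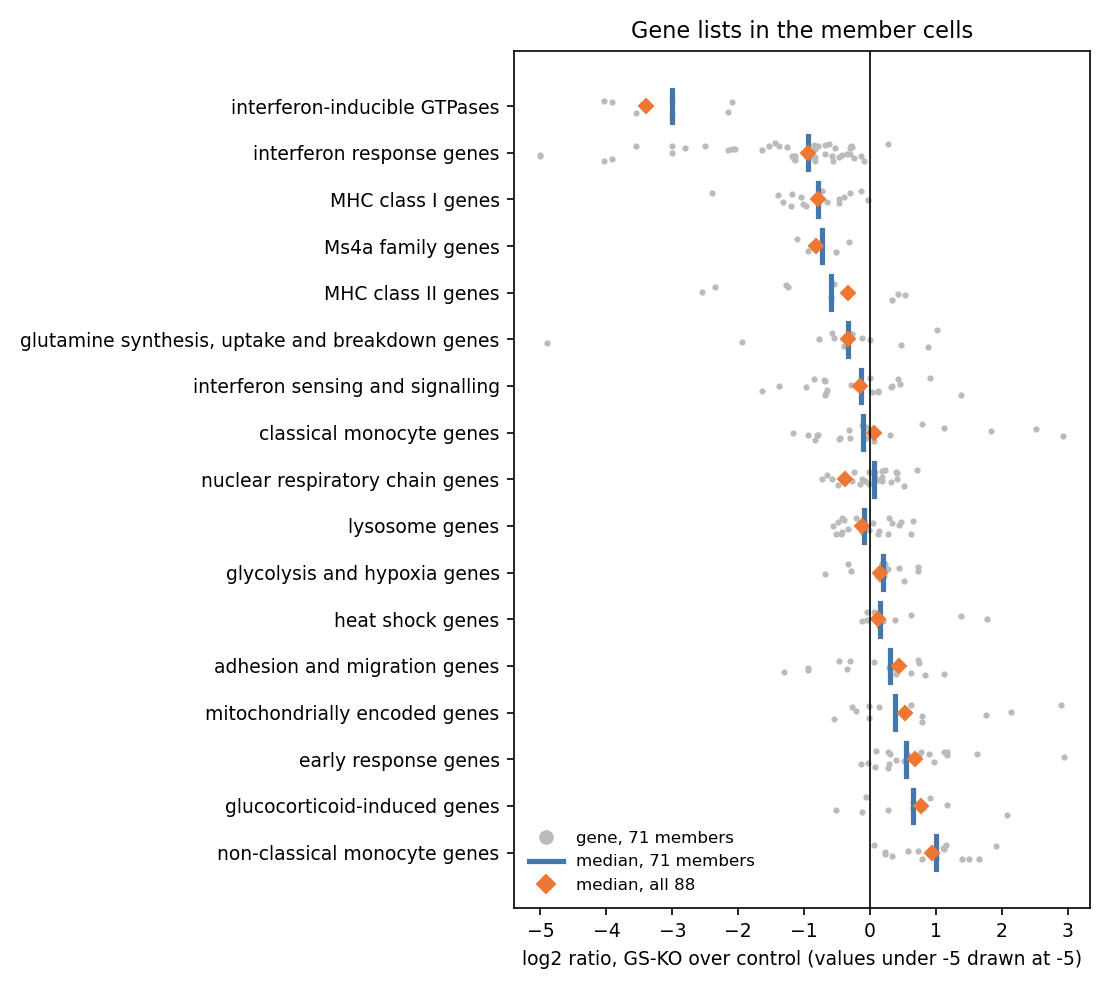
Log2 ratio of GS-KO over control for each measured gene (grey), the list median over the 71 members (blue bar) and over all 88 members (orange diamond). The GTPase, interferon and MHC class I lists lie left of 0 with both sets of members, the early response and non-classical lists lie right of 0, and values under -5 are drawn at -5.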

How the data were processed

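The 2 libraries of mouse liver cells were made with a 10x kit, 1 per group. The authors deposited UMI counts per gene and barcode, made with Cell Ranger on mm10 per the submitters' processing notes (matrix software 3.1.0 per the file headers), with 32285 genes. Barcodes were filtered and members chosen by the rule given above. The members, the gene lists (38 lists) and the naming rule were chosen with earlier results of these data known. Counts were summed over members and scaled to CPM. Log2 ratios used a prior count of 0.5, and genes with at least 20 UMIs over both libraries were compared. Intervals were exact Poisson (CPM), Clopper-Pearson (shares) and conditional binomial (ratios), and no test was made. Named genes were the 12 higher and 12 lower with at least 50 UMIs and a ratio of at least 2, ranked by the interval bound nearest 1, without genes more than 5 times higher in another cell class, plus rule genes and leading list genes. The ratio code was tested on simulated data. The 71-cell set and the Vcan groups were formed after values were seen. Gene positions are from GENCODE M21. Tools were Python 3.11.15, scipy 1.17.1 and scanpy 1.11.5. Some genes of the lists are not reported here.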

Additional observations from a re-analysis of the deposited data

How the results depend on the processing

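Of the genes compared over the 88 members, 835 were 1.5-fold higher and 1118 lower in GS-KO. These counts became 114 and 99 after thinning to 1000 UMIs (649 genes measured), 316 and 454 with at least 50 UMIs, 2432 and 4791 with no filter beyond 1 UMI, 518 and 663 in the 71 members, and 443 and 476 in those of the 71 with fewer than 3 non-classical UMIs. Fewer or more genes enter under each of these. The interferon median (-0.94) was -0.19 and the MHC class I median (-0.78) -0.40 after thinning, with 10 genes each. The MHC class II median (-0.34) was 0.22 with fewer than 3 non-classical UMIs and -1.30 without cells with dendritic marker UMIs, and the cause was not tested. Thinning brought Ly6c2 from -0.84 to -0.13, Dusp1 from 1.18 to 0.37 and Psmb9 to -0.40. The dendritic cell list turned to -0.11 in the 71 members. Without the deepest GS-KO cell Lyz1 turned to -1.34 and Prg4 to -7.38, since that cell held most of the GS-KO library's Lyz1 UMIs and all of its Prg4 UMIs. The settings with the 71 members, fewer non-classical UMIs, and single cells left out were added after the data were seen. No paired analysis was possible because each group is 1 mouse. A gene with 0 UMIs in the 23 GS-KO cells may stand at up to 16.5 CPM (3 counts).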
